A study of Saccharomyces cerevisiae with 8 samples.

Results

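A set of 10 genes of thiol redox control and peroxide defence was followed through 8 poly(A) RNA-seq libraries of budding yeast. They were chosen by name, as the open reading frames of the cytosolic glutaredoxins GRX1, GRX2 and GRX8, the cytosolic thioredoxins TRX1 and TRX2, the cytosolic peroxiredoxins TSA1 and TSA2, the catalases CTT1 and CTA1, and the mitochondrial superoxide dismutase SOD2, and make up 10 of the 6713 reading frames measured. The rule is a list of names and uses no measured value. All 10 passed the filter on low counts, as did 6346 reading frames in all, with 92 to 40174 reads per gene and library.

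Thioredoxins and glutaredoxins are small proteins that reduce disulfide bonds with a pair of cysteines in the active site. Thioredoxins are recharged by thioredoxin reductase and NADPH, and glutaredoxins by glutathione. Peroxiredoxins use a cysteine to reduce hydrogen peroxide and are then reset by thioredoxin, whereas catalases split hydrogen peroxide on a heme and need no reductant, and superoxide dismutases make hydrogen peroxide from superoxide. In budding yeast the transcription factors Yap1 and Skn7 are known to raise many of these genes under peroxide, and Msn2 and Msn4 to raise CTT1 and other stress genes when nutrients run out. A saturated culture can respire, and sporulation medium, which drives diploids into meiosis, supplies a non-fermentable carbon source.

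The libraries came from BY4743, a diploid laboratory strain that the labels call wild-type, in 4 groups of 2 libraries. Cells labelled natSMAUG+, an untreated group here called prion, carried [SMAUG+], a prion state of the RNA-binding protein Vts1, and cells labelled perfect_cured, here called cured, had gone through selective removal of it. Each state was sampled after 48 h in preSPO, a 10 ml culture grown to saturation of which 5 ml was harvested, and after the other 5 ml had spent 14 h in SPO, the sporulation medium. The series' design text speaks of transient VTS1 overexpression and of a vts1 deletion, which no sample label names, and every library held reads of VTS1 (70 to 1343).

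The estimated counts of a library summed to between 4650285 and 71684784, with both extremes among the cured SPO replicates. MET17, a sulfur assimilation gene of which BY4743 carries 1 deleted copy, separated the states in preSPO, with 3207 and 3867 reads in the prion and 0 and 1 in the cured libraries. In SPO it did not follow the labels: the prion libraries held 1363 and 1 reads and the cured libraries 447 and 13. Prion SPO replicate 2 and cured SPO replicate 1 therefore stand apart. Whether these libraries carry each other's label cannot be told from the files, so every SPO difference between the states rests on the labels as given, and the members' SPO results are also given without this pair. The counts over gene lists are not. In preSPO the cured state and the lack of MET17 reads cannot be told apart. Levels below are given in CPM, counts relative to the scaled total of the library. Of 7 sporulation markers 6 rose and 1 fell from preSPO to SPO (3 and 1 on log2(TPM + 1), TPM being the deposited level per effective transcript length). Their summed level was 87.2 to 91.7 CPM in preSPO and 1406 to 2644 CPM in SPO, most of it SPS100 (6.59 and 1678 CPM). Markers of haploid cells were low but present: 5 a-specific genes summed to 23.3 to 40.8 CPM, with MFA1 at 0 in all 8 libraries, and 3 alpha-specific genes to 23.5 to 55.0 CPM. A list of 7 haploid-specific genes summed to 71.3 to 131 CPM in preSPO and 177 to 188 CPM in SPO, and 5 of them rose (1 on the TPM scale), FUS3 from 2.76 to 26.9 CPM. By the test given below, 34.2% of all genes rose and 34.0% fell from preSPO to SPO. The part of these cell types in the results was not tested. In bulk RNA, fewer cells of a type and less RNA per cell cannot be told apart.

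From preSPO to SPO, over both states (4 libraries against 4), 7 of the 10 genes were called at an adjusted p below 0.05 (edgeR quasi-likelihood test, Benjamini-Hochberg over all 6346 genes), 6 higher and 1 lower. That share is close to the background, since 68.2% of all genes tested were called, 34.2% higher and 34.0% lower. CTA1 rose 25.8-fold, CTT1 8.56-fold, SOD2 4.53-fold, TRX1 3.08-fold and GRX2 2.12-fold, TSA2 rose by 0.39 on the log2 scale, and GRX8 fell, to a level 6.08-fold lower. GRX1, TRX2 and TSA1 were not called, at log2 fold changes of 0.06, 0.03 and 0.27. For 6 genes no SPO library overlapped any preSPO library, against 58.7% of all genes; 5 were higher and 1 lower (29.3% and 29.4% of all genes), TSA2 being the called gene whose libraries overlapped. These values are relative to the median gene, which shifted by -0.27 on the log2 scale when libraries were scaled by size alone and by -0.72 on log2(TPM + 1). On the TPM scale GRX1, TRX2, TSA1 and TSA2 turned negative (-0.73, -0.77, -0.52 and -0.40). Among these, GRX1 and TRX2 were called lower in SPO (adjusted p = 0.00118 and 0.000567 by limma). The GRX2 increase was no longer called there (log2 0.29, adjusted p = 0.184 by limma). CTA1, CTT1, SOD2, TRX1 and GRX8 kept direction and call in all 16 alternatives run. Without the pair of SPO libraries set apart by MET17 the log2 fold changes were 4.54 for CTA1, 2.95 for CTT1, 2.25 for SOD2, 1.73 for TRX1, 1.10 for GRX2 and -2.55 for GRX8, all of them called.

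**Figure D1:**
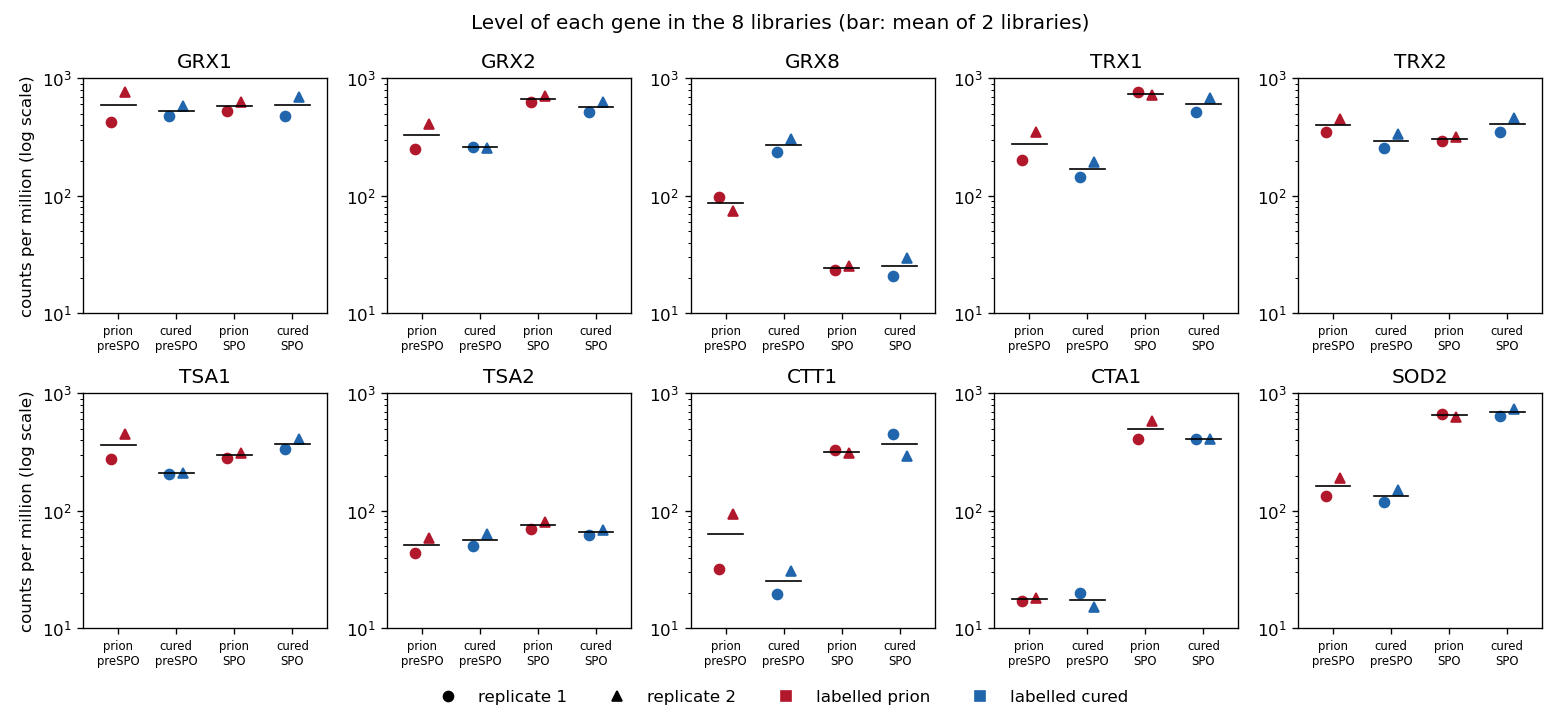
Level in CPM of each of the 10 genes in the 8 libraries, on a log axis with 1 panel per gene and 1 column per group; points are libraries and bars the mean of 2 libraries. CTA1 sits between 15.2 and 19.9 CPM in preSPO and between 409.7 and 584 CPM in SPO, and GRX8 runs the other way, with its highest values of 237 and 304 CPM in the cured preSPO libraries.

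Compared in TPM, GRX1 led in preSPO, with a mean of 1657 ± 260.1 (SD, n = 4 libraries), and TRX1 led in SPO, with 1326 ± 334 TPM. The deposited TPM divide by an effective length below the coding length, 153 against 312 bases for TRX1 and 1530 against 1689 for CTT1. Short reading frames therefore stand higher against long ones than they would per coding base. The preSPO order went on with TRX2 (1151 TPM), TRX1 (740.5), GRX2 (555), GRX8 (553), TSA1 (338), SOD2 (140.4), TSA2 (64.6), CTT1 (14.3) and CTA1 (6.65). Neighbours whose libraries overlapped in that order were TRX2 and TRX1, TRX1 and GRX2, GRX2 and GRX8, GRX8 and TSA1, and CTT1 and CTA1. In SPO the order was TRX1, GRX1 (994 TPM), GRX2 (685), TRX2 (673), SOD2 (371), TSA1 (229.8), CTA1 (99.0), CTT1 (69.4), TSA2 (49.6) and GRX8 (43.1), and overlaps joined TRX1 with GRX1, GRX2 with TRX2, and the last 4 genes in a chain. The levels summed over the 10 genes stayed between 4775 and 5932 TPM in preSPO and between 3722 and 5215 TPM in SPO, and the 2 glutaredoxins GRX1 and GRX2 with the 2 thioredoxins made up most of this sum in every library.

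GRX8 (YLR364W) lies on chromosome XII at 854062 to 854391 (R64, forward strand) and encodes a cytosolic glutaredoxin with low activity in the standard glutaredoxin assay. Its level in preSPO was 98.1 and 74.3 CPM in the prion libraries and 237 and 304 CPM in the cured libraries, and after SPO it was 23.2 and 25.5 CPM (prion) and 20.9 and 29.7 CPM (cured). Both cured preSPO libraries were above both prion preSPO libraries, all 4 SPO libraries were below all 4 preSPO libraries, and the SPO groups overlapped. As a share of the summed TPM of the 10 genes, GRX8 took 6.71% and 3.3% (prion) and 16.3% and 17.0% (cured) in preSPO and 0.91% to 1.03% in SPO.

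In preSPO, GRX8 was 3.14-fold higher in cured than in prion cells (log2 1.65, SE 0.231, adjusted p = 0.0297 by edgeR, n = 2 against 2), with the spread estimated over all 8 libraries. It was the one member called in this comparison, where 0.930% of all genes were called, 0.457% higher and 0.473% lower. The estimate stayed between 1.46 and 1.86 on the log2 scale over 15 alternatives, while the adjusted p ran from 9.32e-08 to 0.139. The call was lost on leaving out prion preSPO replicate 2 (log2 1.46, adjusted p = 0.113), replicate 1 (1.82, 0.0568) or 2 (1.46, 0.139) of cured preSPO, or replicate 1 (1.65, 0.0884) or 2 (1.65, 0.0881) of prion SPO, and without the pair of SPO libraries that MET17 sets apart (1.65, 0.0612). The SPO libraries enter only through the shared estimate of spread. MET17 reads, at 0 and 1 in the cured preSPO libraries, moved with this difference, and their part in it was not tested. In SPO, where MET17 cuts across the labels, GRX8 was 23.2 and 20.9 CPM in the libraries with 1363 and 447 MET17 reads and 25.5 and 29.7 CPM in those with 1 and 13. In TPM the values were 47.5 and 41.0 against 45.4 and 38.4, which overlap. The libraries with more MET17 reads are replicate 1 of each state and the others replicate 2. MET17 and replicate number therefore cannot be told apart in SPO.

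**Figure D2:**
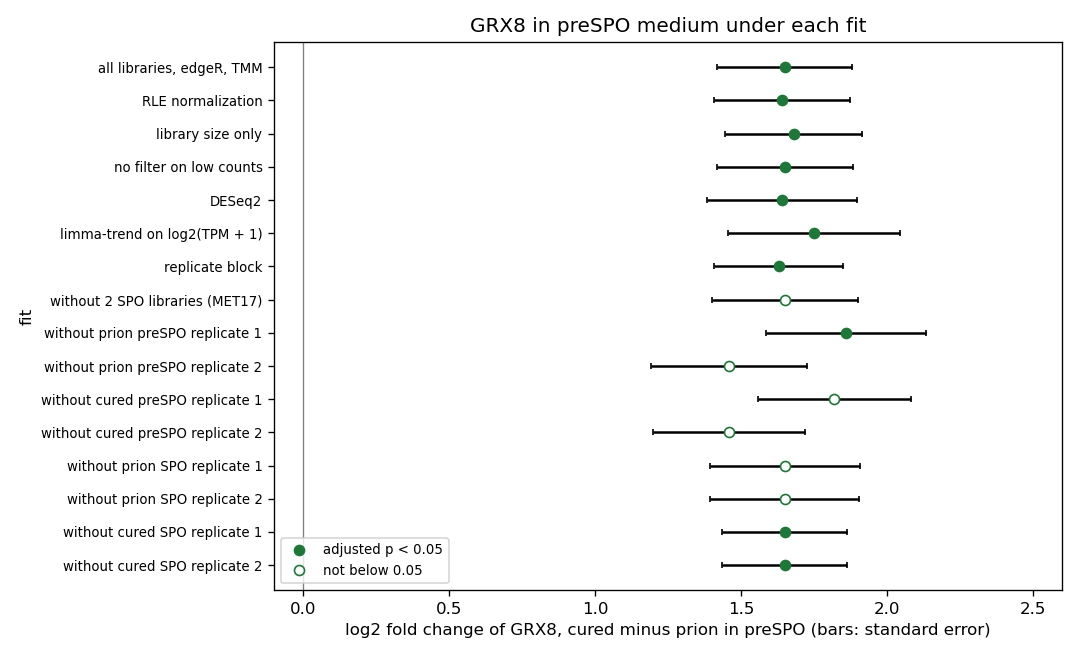
Log2 fold change of GRX8, cured minus prion in preSPO, under the reported fit and each of 15 alternatives; points are estimates, bars standard errors, and filled points mark an adjusted p below 0.05. All estimates lie between 1.46 and 1.86, while the adjusted p crosses 0.05 in 6 of the fits that leave out libraries.

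The decline of GRX8 in SPO was 3.53-fold in prion cells (log2 -1.82, adjusted p = 0.00036) and 10.5-fold in cured cells (log2 -3.39, adjusted p = 2.4e-05, edgeR). The difference between these declines (interaction) was -1.57 on the log2 scale (SE 0.328) and was not called by edgeR (adjusted p = 0.156), although DESeq2 gave -1.56 with adjusted p = 0.00361 and limma on TPM gave -1.98 with adjusted p = 0.00625. Over the alternatives that adjusted p ran from 0.00361 to 0.84. Without the MET17 pair the declines were -1.90 and -3.19 and the interaction -1.28 (adjusted p = 0.84).

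The 500 bases before the GRX8 start codon held the letters of the Met31/Met32 element (CTGTGG, a site of the activators of sulfur amino acid genes), shown here because the cured and prion preSPO libraries also differ in MET17. The window is read 5′ to 3′ on the gene's strand, from the R64 reference genome, and the capitals mark the element on the opposite strand.
GRX8, chrXII:853917-853946, 133 bases before the start codon: taagtgttgatgCCACAGtttgtaaaaaaa
Searched on both strands, the letters occur in 13.2% of 6000 windows of the same length, and in those of GRX8, TSA1, TSA2 and CTA1 among the 10 genes. TSA1, TSA2 and CTA1 were not called between the states in preSPO by the reported fit, which called 0.930% of all genes. TSA1 was called lower in cured cells by DESeq2 (-0.81, adjusted p = 0.0256) and by edgeR without prion preSPO replicate 1. Another motif searched, the Cbf1 E-box (CACGTG), was not found before GRX8. Its letters occur in 6.2% of the windows and, among the 10 genes, in those of GRX1 and SOD2. Neither of these was called between the states in preSPO, and the part of either motif in the difference between the states was not tested.

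GRX1 (YCL035C, chromosome III, 60841 to 61173, reverse strand) and GRX2 (YDR513W, chromosome IV, 1471017 to 1471448, forward strand) encode the main cytosolic glutaredoxins, of which Grx2 is also found in mitochondria. GRX2 stood in preSPO at 252 and 409 CPM (prion) and 261 and 258 CPM (cured), and in SPO at 628 and 714 CPM (prion) and 514 and 631 CPM (cured). Every SPO library was above every preSPO library, and GRX2 rose in both states, by 1.02 in prion (adjusted p = 0.00956) and 1.14 in cured cells (adjusted p = 0.00527) on the log2 scale. The prion call was lost without prion SPO replicate 2 (log2 0.92, adjusted p = 0.0623) and without the MET17 pair (0.92, 0.0644), and neither state's increase was called by limma on TPM (0.44 and 0.14). Its 5′ end overlaps EMI1, a sporulation gene on the other strand, by 47 bases, and 17 of its 402 31-base words are also in EMI1, whose level was 67.7 to 100 TPM in preSPO and 160 to 265 TPM in SPO. No source names a strand setting for the counting, so reads from the overlap may belong to either gene.

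GRX1 stood in preSPO at 426 and 771 CPM (prion) and 478 and 579 CPM (cured), and in SPO at 529.6 and 628 CPM (prion) and 479 and 699.8 CPM (cured). All 4 groups overlapped, with the widest gap between the prion preSPO replicates. The ratio of GRX1 to GRX2, in TPM, was, in preSPO, 2.66 and 2.95 (prion) and 2.87 and 3.52 (cured) and, in SPO, 1.32 and 1.38 (prion) and 1.46 and 1.74 (cured). A ratio within a library does not depend on the scaling between libraries, and it was lower in all 4 SPO libraries than in any preSPO library.

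The paired thioredoxins changed places. TRX1 (YLR043C, chromosome XII, 231702 to 232013, reverse strand) and TRX2 (YGR209C, chromosome VII, 912913 to 913227, reverse strand) encode the cytosolic thioredoxins that reset peroxiredoxins, ribonucleotide reductase and the sulfate-reducing enzyme of methionine synthesis. TRX1 stood in preSPO at 203 and 348 CPM (prion) and 146 and 196 CPM (cured), and in SPO at 761 and 724 CPM (prion) and 519 and 684 CPM (cured). All SPO libraries lay above all preSPO libraries, and TRX1 rose by 1.43 in prion (SE 0.293, adjusted p = 0.00365) and 1.82 in cured cells (SE 0.297, adjusted p = 0.00106), and without the MET17 pair by 1.46 and 2.0. TRX2, at 353 and 454, 255 and 336, 293 and 320.1, and 353 and 460.1 CPM in the same order of groups, was not called in either state by the reported fit. Both SPO libraries were below both preSPO libraries in prion cells and above them in cured cells. In prion cells TRX2 stood at log2 -0.39 (adjusted p = 0.178) and in cured cells at 0.46 (adjusted p = 0.117), and the difference between these was 0.86 (SE 0.326, adjusted p = 0.34; 1.10 without the MET17 pair, adjusted p = 0.897). With same-numbered libraries as a replicate block, TRX2 was called in cured cells (0.46, adjusted p = 0.0462), and with library size alone in prion cells (-0.57, adjusted p = 0.0479). On log2(TPM + 1) the values were -1.0 (adjusted p = 0.00218 by limma) and -0.53. The ratio of TRX1 to TRX2, in TPM, was 0.588 and 0.782 (prion) and 0.581 and 0.593 (cured) before the change of medium and 2.64 and 2.31 (prion) and 1.5 and 1.51 (cured) after it. TRX2 was thus the more abundant message in all 4 preSPO libraries and TRX1 in all 4 SPO libraries.

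TRX2 is a classical target of Yap1 under peroxide. Its upstream 500 bases hold a pair of the Yap1 element TTACTAA, shown because the paralog with these letters is the one not called between the media by the reported fit. Capitals mark the element, which lies on the opposite strand in the first window.
TRX2, chrVII:913426-913455, reverse strand, 217 bases before the start codon: tgtttatactcTTAGTAAaggatgctccct
TRX2, chrVII:913390-913419, reverse strand, 181 bases before the start codon: tggctcttttcTTACTAAgcgcgttcagtt
The letters occur in 11.8% of the 6000 windows and in those of GRX2, TRX2, TSA2, CTA1 and SOD2. All of these but TRX2 were called higher in SPO over both states by the reported fit, which called 34.2% of all genes higher. The TSA2 call was lost in several alternatives, and the GRX2 call on the TPM scale (log2 0.29, adjusted p = 0.184 by limma). Of the members without the letters, CTT1 and TRX1 were also called higher, GRX8 was called lower, and GRX1 and TSA1 were not called. The part of the motif in these changes was not tested. The window of TRX1 holds neither the Yap1 letters nor AGGGG.

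**Figure D3:**
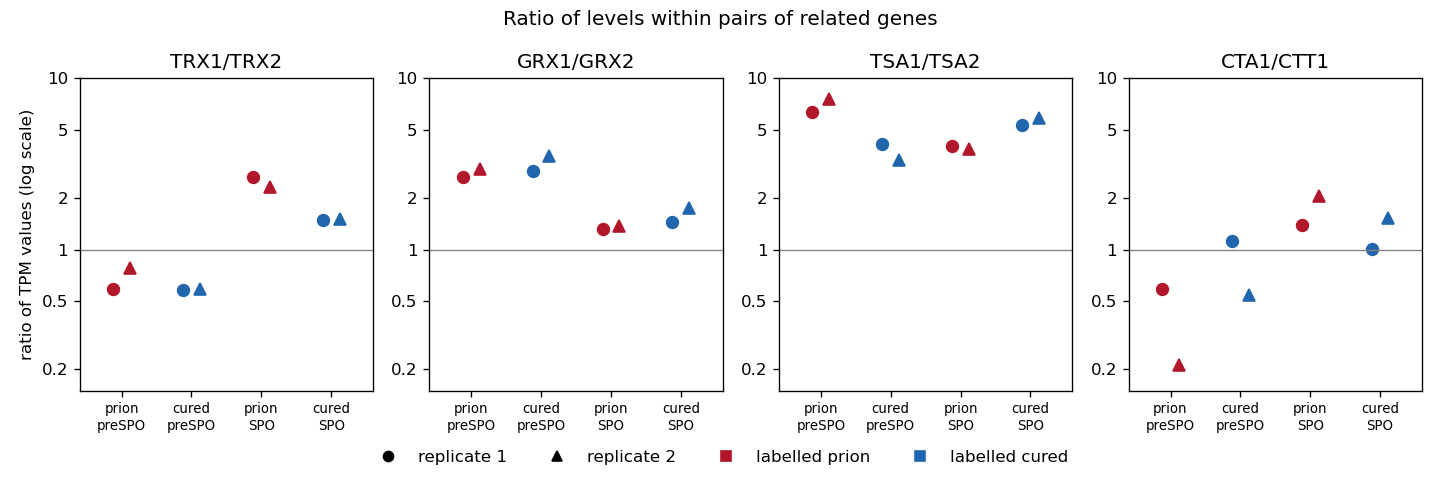
Ratio of TPM values within pairs of related genes in each of the 8 libraries, on a log axis with 1 panel per pair; points are libraries and the grey line marks equal levels. TRX1 over TRX2 passes from 0.581 to 0.782 in preSPO to 1.5 to 2.64 in SPO, and GRX1 over GRX2 stays above 1 in every library.

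Of the peroxiredoxins, TSA1 (YML028W, chromosome XIII, 220138 to 220728, forward strand) encodes the main thioredoxin-dependent peroxidase of the cytosol and TSA2 (YDR453C, chromosome IV, 1365072 to 1365662, reverse strand) its less abundant paralog. The 2 reading frames share no 31-base word, the usual length on which kallisto assigns reads, so they could be told apart. TSA1 stood in preSPO at 278 and 450.4 CPM (prion) and 207 and 212 CPM (cured), and in SPO at 284 and 310.5 CPM (prion) and 337 and 408 CPM (cured). Cured preSPO was the low group, below every other library. TSA1 rose from preSPO to SPO in cured cells (log2 0.83, SE 0.245, adjusted p = 0.0177) and stood at -0.29 in prion cells (adjusted p = 0.334), and the difference was 1.13 (SE 0.346, adjusted p = 0.269), which was not called. Without the MET17 pair the values were 0.96 in cured cells, -0.37 in prion cells and 1.33 for the difference (adjusted p = 0.881). The cured call was lost on leaving out replicate 1 (0.82, adjusted p = 0.079) or 2 (0.85, 0.0681) of cured preSPO or cured SPO replicate 2 (0.68, 0.0833), and with library size alone (0.43, 0.148), and the sign turned on log2(TPM + 1) (-0.16), where the prion value was -0.87 (adjusted p = 0.00907 by limma). The prion value turned on single preSPO libraries: without replicate 1 TSA1 fell by 0.60 on the log2 scale (adjusted p = 0.0451), and without replicate 2 it stood at 0.10. Over both states TSA1 was called without prion preSPO replicate 2 (0.47, adjusted p = 0.0148).

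TSA2 stood in preSPO at 43.5 and 59.1 CPM (prion) and 50 and 63.2 CPM (cured), and in SPO at 70.8 and 80.5 CPM (prion) and 62.8 and 69.2 CPM (cured). Its increase over both states (log2 0.39, SE 0.141, adjusted p = 0.0346) was small, and it was lost on leaving out replicate 1 of prion preSPO (0.29, adjusted p = 0.0822) or of cured preSPO (0.31, 0.116), replicate 1 (0.44, 0.0529) or 2 (0.34, 0.119) of prion SPO, cured SPO replicate 2 (0.35, 0.0923) or the MET17 pair (0.37, 0.15) and with library size alone (0.10, 0.582), and its sign turned on the TPM scale. The TSA2 increase called in prion cells alone (0.56, adjusted p = 0.0415) was lost on leaving out prion preSPO replicate 1 (0.36, 0.184), replicate 1 (0.66, 0.0784) or 2 (0.46, 0.206) of prion SPO, or the MET17 pair (0.46, 0.249) and with library size alone (0.38, 0.165), and stood at -0.05 on log2(TPM + 1). The ratio of TSA1 to TSA2 in TPM was, in preSPO, 6.38 and 7.62 (prion) and 4.13 and 3.35 (cured) and, in SPO, 4.01 and 3.85 (prion) and 5.37 and 5.9 (cured). TSA1 was the more abundant in all 8 libraries, and in preSPO the ratio was lower in both cured than in both prion libraries.

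The catalases rose in both states. CTA1 (YDR256C, chromosome IV, 968133 to 969680, reverse strand) encodes catalase A of peroxisomes and mitochondria, which removes the hydrogen peroxide made by fatty acid beta-oxidation, and CTT1 (YGR088W, chromosome VII, 654634 to 656322, forward strand) encodes the cytosolic catalase T. CTA1 stood in preSPO at 17.1 and 18.2 CPM (prion) and 19.9 and 15.2 CPM (cured), and in SPO at 412 and 584 CPM (prion) and 412 and 409.7 CPM (cured). The preSPO libraries lay close together and more than 20-fold below the lowest SPO library. CTA1 rose by 4.82 in prion cells (SE 0.259, adjusted p = 6.44e-06) and 4.56 in cured cells (SE 0.256, adjusted p = 7.37e-06), and without the MET17 pair by 4.53 and 4.55.

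CTT1 stood in preSPO at 32.2 and 94.3 CPM (prion) and 19.5 and 30.7 CPM (cured), and in SPO at 327 and 311 CPM (prion) and 449 and 294 CPM (cured). The SPO libraries were all above the preSPO libraries, of which prion preSPO replicate 2 was the highest. CTT1 rose by 2.33 in prion cells (SE 0.462, adjusted p = 0.0031) and 3.87 in cured cells (SE 0.495, adjusted p = 0.000315), and without the MET17 pair by 2.36 and 3.53. The prion value was 1.76 without preSPO replicate 1 and 3.31 without preSPO replicate 2. The difference between the states, 1.54 (SE 0.631), was not called (adjusted p = 0.372), and it was 2.10 and 0.56 without these libraries and 1.17 without the MET17 pair. The ratio of CTA1 to CTT1 in TPM was, in preSPO, 0.586 and 0.212 (prion) and 1.12 and 0.543 (cured) and, in SPO, 1.39 and 2.07 (prion) and 1.01 and 1.54 (cured).

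CTT1 is a textbook target of Msn2 and Msn4, which bind the stress response element AGGGG. Its upstream 500 bases hold 3 copies, shown because this gene rose with the stress genes described further on. Capitals mark the element, which lies on the opposite strand in the last window.
CTT1, chrVII:654244-654273, forward strand, 378 bases before the start codon: ccctctttttcaAGGGGatcaccggtaagg
CTT1, chrVII:654259-654288, forward strand, 363 bases before the start codon: ggatcaccggtaAGGGGccaagcggtgaaa
CTT1, chrVII:654489-654518, forward strand, 133 bases before the start codon: catttatcgtatCCCCTactgctacacgta
The letters occur in 34.1% of the 6000 windows and in those of 7 of the 10 genes, namely GRX1, GRX2, TRX2, TSA1, TSA2, CTT1 and SOD2. Members with them include genes that rose and genes that were not called between the media over both states by the reported fit.

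SOD2 (YHR008C, chromosome VIII, 122889 to 123590, reverse strand) encodes the manganese superoxide dismutase of the mitochondrial matrix, which meets the superoxide that respiration gives off. It stood in preSPO at 133 and 191 CPM (prion) and 119 and 151 CPM (cured), and in SPO at 673 and 628 CPM (prion) and 644 and 738 CPM (cured). The groups of the 2 media did not overlap, and SOD2 rose by 2.0 in prion (SE 0.241, adjusted p = 0.00024) and 2.36 in cured cells (SE 0.244, adjusted p = 0.000113), and without the MET17 pair by 2.04 and 2.45. The share of SOD2 in the summed TPM of the 10 genes was 2.57% to 2.86% in preSPO and 7.3% to 9.03% in SPO.

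**Figure D4:**
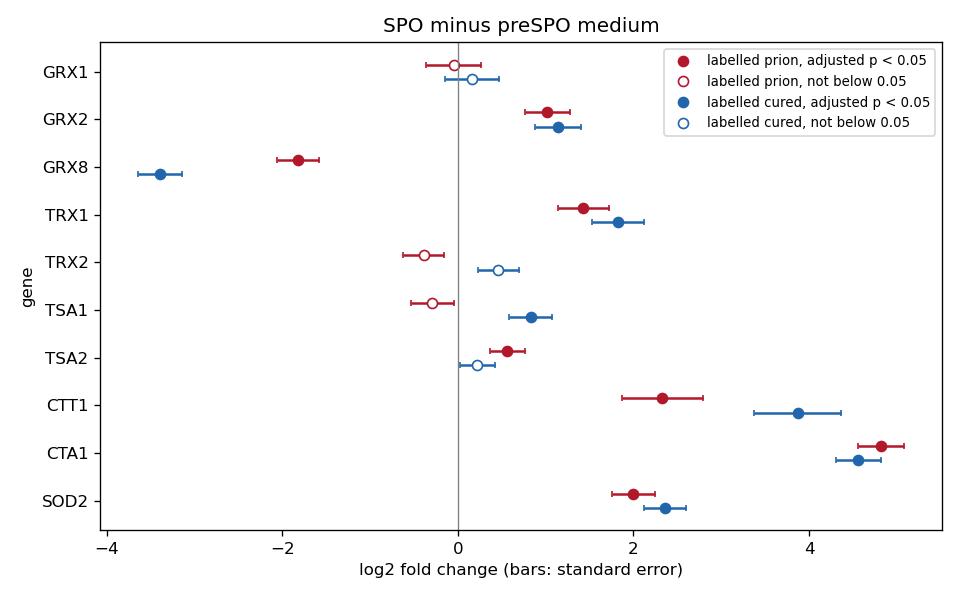
Log2 fold change of each gene from preSPO to SPO in prion and in cured cells, with standard errors as bars, by edgeR on all 8 libraries. CTA1 is highest in both states (4.82 and 4.56), GRX8 is lowest (-1.82 and -3.39), and the estimates for TRX2 and TSA1 lie on opposite sides of 0 in the 2 states, although on log2(TPM + 1) all 4 are negative.

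Counted within each state, 7 of the 10 genes were called from preSPO to SPO in prion cells, where 53.3% of all genes were called (26.2% higher, 27.1% lower), and 7 in cured cells, where 57.2% were (28.6% in each direction). In both states 6 of the 7 were higher. CTA1, CTT1, SOD2, TRX1, GRX2 and GRX8 were called in both states and in the same direction, TSA2 was called in prion cells and TSA1 in cured cells. For the last pair the interaction was -0.34 (adjusted p = 0.646) and 1.13 (adjusted p = 0.269), so no difference between the states was shown. None of the 10 genes was called for the interaction, as against 0.0158% of all genes. At an unadjusted p below 0.05 the interaction count was 4 of 10 (GRX8, TSA1, TRX2 and CTT1), against 12.5% of all genes. DESeq2 and limma each called GRX8.

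Between the states in preSPO, apart from GRX8, no gene was called. The libraries of the groups did not overlap for 5 of the 10 genes, against 46.9% of all genes, with GRX8 higher (23.0% of all genes) and TRX1, TRX2, TSA1 and CTT1 lower (23.9%) in cured cells. The log2 values were -0.69 for TRX1 (SE 0.29, adjusted p = 0.234), -0.45 for TRX2 (0.231, 0.317), -0.80 for TSA1 (0.245, 0.138) and -1.32 for CTT1 (0.457, 0.173). At an unadjusted p below 0.05, 4 of 10 genes passed (GRX8, TSA1, CTT1 and TRX1), against 19.9% of all genes. DESeq2 called TSA1 (-0.81, adjusted p = 0.0256) and CTT1 (-1.33, adjusted p = 0.0284) besides GRX8, as did edgeR without prion preSPO replicate 1 (-1.11, adjusted p = 0.0264, and -1.89, adjusted p = 0.0246). Without prion preSPO replicate 2, the highest library for both, the values came down to -0.41 for TSA1 and -0.34 for CTT1. GRX1 (-0.18), GRX2 (-0.35), TSA2 (0.14), CTA1 (-0.02) and SOD2 (-0.27) had overlapping groups.

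The summed level of 8 stress genes known as Msn2 and Msn4 targets was 4164 to 6641 CPM in prion and 3431 to 3794 CPM in cured preSPO libraries, with a median log2 value of -0.76 and 0 of 8 genes called. These are values of the reported fit. In it DDR2, a stress gene of this list, stood at log2 -2.01 (20.4 against 82.3 CPM, adjusted p = 0.0697 by edgeR). SSA3, a chaperone, stood at 0.93 (200.4 against 105 CPM, adjusted p = 0.187 by edgeR). DDR2 was called lower by DESeq2, by limma on log2(TPM + 1), with library size alone, with the replicate block and without prion preSPO replicate 1. SSA3 was called in no alternative. The part of the stress genes in the CTT1 difference was not tested.

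In SPO no member was called between the states, by edgeR or DESeq2, where edgeR called 0.0315% of all genes. Estimates ran from -0.30 for TRX1 to 0.41 for TRX2, with standard errors of 0.198 to 0.438, and no gene reached an unadjusted p below 0.05, against 2.43% of all genes. Libraries did not overlap for 5 genes, against 32.3% of all genes; TRX2 and TSA1 were higher (16.1% of all genes) and TRX1, TSA2 and CTA1 lower (16.2%) in cured cells. Without the MET17 pair, which leaves 1 library a group and assumes that it varies like the others, estimates ran from -0.15 (TRX1 and CTT1) to 0.65 (TRX2), and 0 genes were called.

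**Figure D5:**
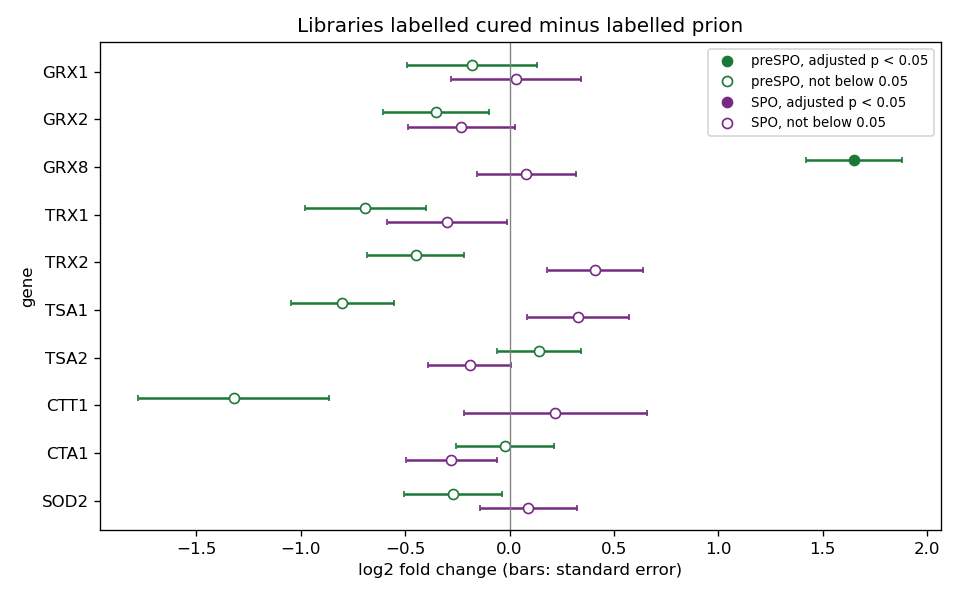
Log2 fold change of each gene, cured minus prion, in preSPO and in SPO, with standard errors as bars, by edgeR on all 8 libraries. GRX8 in preSPO (1.65) is the single called value, CTT1 in preSPO (-1.32) is the lowest, and all SPO values lie between -0.30 and 0.41.

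Other genes of the same pathways gave a mixed picture between the media. The list counts here and in the next paragraphs stand against 68.2% of all genes called over both states, 34.2% higher and 34.0% lower. Of 11 partners of the thioredoxin and glutaredoxin systems 5 rose and 4 fell from preSPO to SPO, with a median log2 value of 0.16 against 0.02 for all genes tested, and the counts were 2 and 5 with library size alone and 2 and 6 on the TPM scale. TRR1, the cytosolic thioredoxin reductase that recharges Trx1 and Trx2, fell by 1.36 on the log2 scale (183 to 70.8 CPM, adjusted p = 1.36e-05), and GSH1, which makes the first step of glutathione synthesis, fell by 2.13 (adjusted p = 2.72e-05). TRX3, the mitochondrial thioredoxin, rose by 1.59 and GRX6, a glutaredoxin of the secretory pathway, by 1.56.

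Of 10 other peroxidases and superoxide dismutation genes 5 rose and 3 fell (median 0.69; 3 and 4 with a median of -0.06 on the TPM scale). PRX1, the mitochondrial peroxiredoxin, rose by 2.28 (185 to 893 CPM), GPX1, a glutathione peroxidase, by 2.97 (45.0 to 355 CPM), and HYR1, the peroxidase that senses peroxide for Yap1, by 1.95, while GPX2 fell by 1.17. Among 6 regulators 2 rose and 3 fell, against 0 and 3 with library size alone and 0 and 4 on the TPM scale. MSN4 fell by 3.40 (513 to 48.8 CPM, adjusted p = 2.65e-06), and YBP1, the Yap1-binding protein, by 0.83. YAP1 itself stood at 0.32 (adjusted p = 0.0384 by edgeR), a call lost in 9 alternatives and of opposite sign on the TPM scale (-0.47). CAD1, a relative of Yap1, stood at 0.53, a call lost in 2 alternatives. These were library size alone and the TPM scale, where CAD1 was of opposite sign (-0.27).

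The genes that supply NADPH were all called, against 68.2% of all genes, with 5 of 11 higher and 6 lower (3 and 6 on the TPM scale). IDP2, the cytosolic isocitrate dehydrogenase, rose by 6.58 (14.5 to 1372 CPM), and the 6-phosphogluconate dehydrogenases went in opposite directions, since GND2 rose by 5.34 and GND1 fell by 2.6. All 3 peroxisomal beta-oxidation genes rose beside CTA1, POX1 by 5.46, POT1 by 6.77 and FOX2 by 3.04. Of the 8 stress genes 6 rose and 0 fell beside CTT1 (median 2.71), against 6 and 1 with library size alone and 5 and 2 on the TPM scale, with HSP12, a membrane-stabilising stress protein, up by 6.82 and DDR2 up by 5.23. In the repair and conjugation list of 9 genes 4 rose and 2 fell (4 and 3 on the TPM scale), with MXR2, a methionine sulfoxide reductase, up by 2.84, and GTT1, a glutathione transferase, up by 2.82.

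Between the states, these lists held 1 called gene in preSPO, GTT2, a glutathione transferase (85.0 CPM in cured and 37.9 CPM in prion cells, log2 1.17, SE 0.2, adjusted p = 0.0412), and that call was lost in 8 alternatives. Of all genes tested, edgeR called 0.930% in preSPO. DESeq2, which called 441 genes there, also called GLR1, ALD6 and GTO1 of these lists higher in cured cells. It called SOL3, SOL4, TKL1 and DDR2 lower. In SPO edgeR called 0 genes of any list, against 0.0315% of all genes.

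Likeness of pattern was read as Pearson's r of log2 CPM over the 8 libraries, among 5446 genes, as a description. GRX8 was most like MET22 (r = 0.996) and RDL2 (0.993). For CTA1 the nearest genes were ATG39 and FOX2 (both 0.997), for CTT1 YKL091C and PTP1 (both 0.997), for SOD2 PRI2 and PST2 (both 0.999), for GRX2 RFA3 and SDH5 (both 0.998), and for TRX1 TDA11 and ALG14 (both 0.991). These values are high for many genes, since the medium splits the libraries: 711 genes passed 0.9 for GRX8 and 872 to 1103 for GRX2, TRX1, CTT1, CTA1 and SOD2. GRX1, TRX2 and TSA1, which the reported fit did not call between the media over both states, had 8, 5 and 30 such genes. TRX2 and TSA1 shared their nearest gene, MGA1 (0.930 and 0.972).

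Vts1 is known to bind hairpins with the loop CNGG. Among the coding sequences of the 10 genes 0 held a CNGG or CNGGN loop closed by 5 base pairs, against 18.4% of 6002 coding sequences, and untranslated regions were not searched. The background was not matched for length, and apart from CTT1 and CTA1 no member's coding sequence is longer than 702 bases. A lack of such loops particular to these genes therefore cannot be read from this count.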

How the data were processed

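Poly(A) RNA of 8 BY4743 libraries (4 groups of 2) was quantified with kallisto against R64, per the submitters' processing notes; no source states its version, index or strand setting. The deposited tables give estimated counts and TPM per reading frame, both made by the authors; those of the 10 genes were whole within 1e-06. Estimated counts were rounded and tested with edgeR 4.0.16 in R 4.3.3 (TMM, filterByExpr, quasi-likelihood F-test, two-sided, group means on all 8 libraries, 4 residual degrees of freedom), with Benjamini-Hochberg adjustment over 6346 genes and calls at adjusted p below 0.05. CPM values use TMM library sizes, SE is the log2 fold change over the square root of F, and the fit was tested on simulated data. Alternatives (16) were other scalings, no filter, DESeq2 1.42.0, limma 3.58.1 on log2(TPM + 1), a replicate block, medium alone, and leaving out libraries. The smallest count of a member was 92. The design text calls the replicates biological; if they share a culture, p-values measure technical spread only. No replicates were identical. Members, gene lists and motifs were chosen with earlier results of these data known. Every member is named, with list genes of known role in the pathway. The 2 genes nearest by Pearson's r are named for each member but GRX1 and TSA2, and for TRX2 and TSA1 only the nearest. Sequences are from RefSeq's R64 genome.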

Additional observations from a re-analysis of the deposited data

How the results depend on the processing

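Each of the 10 genes was refitted in each comparison under each alternative. Of the refits of a value called in the report, 307 kept direction and call, 27 kept direction but lost the call, and 3 changed sign. Of the refits of a value not called, 501 kept both, 12 gained a call in the same direction, and 60 changed sign. Refits that changed sign were counted as such whatever their call. Some of the 60 also gained a call, among them GRX1 and TRX2 over both states on log2(TPM + 1). With DESeq2, 3 members and 441 genes were called between the states in preSPO, 15 genes in SPO, and 1 member and 133 genes for the interaction. With limma on log2(TPM + 1) these were 94 genes in preSPO, 10 in SPO, and 1 member and 41 genes for the interaction; signs turned for CTA1 in preSPO (0.08), for GRX1 (-0.26), GRX8 (-0.22), CTT1 (-0.07) and SOD2 (-0.18) between the states in SPO, for TSA2 between the media in prion cells (-0.05), for GRX1 (-0.85), TRX2 (-0.53), TSA1 (-0.16) and TSA2 (-0.74) in cured cells, for GRX1 (-0.73), TRX2 (-0.77), TSA1 (-0.52) and TSA2 (-0.40) over both, and for the interactions of GRX1 (-0.24), GRX2 (-0.30), TRX1 (-0.03) and SOD2 (-0.03). With library size alone, 4 genes were called between the states in SPO and 4 for the interaction; signs turned for CTA1 in preSPO (0.02), for GRX1 (-0.17), GRX8 (-0.14) and SOD2 (-0.10) in SPO, for GRX1 (-0.26) and TSA2 (-0.18) between the media in cured cells, for GRX1 (-0.24), TRX2 (-0.26) and TSA1 (-0.02) over both, and for the interactions of GRX1 (-0.04) and GRX2 (-0.11). RLE scaling called 2 genes for the interaction. Without the pair of SPO libraries set apart by MET17, 0 members and 10 genes were called between the states in preSPO, 11 genes in SPO, 2178 between the media in prion cells and 2 for the interaction; GRX2 (0.01) and CTT1 (-0.15) changed sign in SPO and CTA1 (0.02) in the interaction. Leaving out 1 library at a time gave 0 to 3 members and 0 to 466 genes in preSPO, 2 to 11 genes in SPO, 2202 to 3439 between the media in prion cells and 0 to 45 for the interaction. Signs then turned in preSPO for GRX1 (-0.54 to 0.31), GRX2 (-0.66 to 0.05), TSA2 (-0.06 to 0.39), CTA1 (-0.22 to 0.17) and SOD2 (-0.51 to 0.02), in SPO for GRX1 (-0.28 to 0.27), GRX8 (-0.23 to 0.28), CTT1 (-0.12 to 0.49) and SOD2 (-0.02 to 0.18), between the media in prion cells for GRX1 (-0.41 to 0.44) and TSA1 (-0.60 to 0.10), in cured cells for GRX1 (-0.15 to 0.40), over both for GRX1 (-0.13 to 0.30) and TRX2 (-0.07 to 0.14), and in the interaction for GRX1 (-0.28 to 0.57), GRX2 (-0.27 to 0.43), TRX1 (-0.05 to 0.73) and CTA1 (-0.50 to 0.02). The cause of these changes was not tested. Fits that leave out libraries have fewer samples.

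The protocol splits each preSPO culture into a preSPO and an SPO sample, but no label says that the replicate number marks the culture, and MET17 goes against this for prion replicate 2 and cured replicate 1. Deviations of same-numbered samples from the group means correlated, over 6346 genes, at 0.071 between the prion media, 0.316 between the cured media, 0.150 between the states in preSPO and 0.182 in SPO. The reported fit has no block. With the replicate block, 1 member and 142 genes were called between the states in preSPO, 0 members in SPO, 7 members between the media in prion cells, 8 in cured cells and 7 over both, and 0 genes for the interaction; GRX1 changed sign in prion cells (0.01), and TRX2 was the one member whose call changed (cured cells, adjusted p = 0.0462). With 2 libraries a group, the members' standard errors ran from 0.198 to 0.495 on the log2 scale for contrasts of 2 groups.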
